A study of Mus musculus with 10 samples.

Results

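The 10 genes described here encode the cadherins, plaque proteins and catenins that join cardiomyocytes end to end at the intercalated disc: *Dsp*, *Dsg2*, *Dsc2*, *Pkp2*, *Jup*, *Cdh2*, *Ctnna1*, *Ctnna3*, *Ctnnb1* and *Tjp1*. They were taken by symbol from the 54532 genes of the deposited table, and all 10 were found once. Messenger RNA was measured in heart tissue of 10 mice that carried *Rit1* M90I/+, 5 given vehicle control and 5 given trametinib, an allosteric inhibitor of MEK1 and MEK2 (MEKi). Mice were dosed every day (trametinib at 1 mg/kg) starting at 4 weeks of age, the course lasted 20 weeks, and the final dose was given on the morning of collection. All mice came from a conditional *Rit1* M90I line crossed to a cytomegalovirus-Cre deleter line, so that the variant was in the germline of every animal of both groups. No heart without the variant was sequenced in this series, and littermates of both sexes were used. How the piece of heart for RNA was taken is not given in the sources used here.

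The intercalated disc holds adherens junctions, desmosomes and gap junctions. In an adherens junction N-cadherin spans the gap between cells, and β-catenin or plakoglobin links its tail to an α-catenin and so to actin. In a desmosome the cadherins desmoglein and desmocollin bind plakoglobin and plakophilin, which bind desmoplakin, and desmoplakin holds the desmin filaments. Inherited loss of desmosomal proteins is a known cause of arrhythmogenic cardiomyopathy. ZO-1, the product of *Tjp1*, is a scaffold at the edge of gap junctions.

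RefSeq promoters of GRCm38 (250 bases before the start site and 50 after it) were searched for 5 of the 10 genes, at 8 start sites. Of the rest, *Pkp2* had no entry and the others were left out of the search. The counts below therefore do not cover those genes. The GC box GGGCGG, a binding motif of the SP family searched on both strands, occurred in at least 1 promoter of each of the 5 genes, and in 6 of the 8 promoters. It occurs in 35.7% of all 32851 promoters of that length. The promoters with a box had 60.7% to 75.3% G or C, and those without had 46.0% and 47.3%. The share over all promoters was not matched for this content, and it counts promoters rather than genes. The ETS core CCGGAA and the AP-1 motif TGANTCA, read by factors that act after ERK, were in none of these 8 promoters. They are in 14.9% and 7.81% of all promoters. *Ctnna3* and *Ctnnb1* had more than 1 start site each, and the promoters of *Ctnnb1* overlap, so the 8 are not separate cases. These are matches of letters only. The 30 bases around 1 GC box of each gene are given because it is the motif that the 5 genes had in common. They are on the strand of the gene, with that box in capitals. The stretch of *Ctnnb1* holds a further GC box, left in small letters.
*Dsp*, chr13:38151237-38151266, plus strand: acgcgggggggaGGGCGGgggaggcgaggc
*Jup*, chr11:100397815-100397844, minus strand: agtctccctaggGGGCGGagcttcgagggg
*Ctnnb1*, chr9:120933362-120933391, plus strand: actttccccggcCCGCCCgcgccccgcccc
*Ctnna3*, chr10:63429947-63429976, plus strand: cgaacgtgggagCCGCCCtgcgtgattttt
*Tjp1*, chr7:65371277-65371306, minus strand: ctcgcggaggccCCGCCCccgccggctggg

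Values are FPKM, fragments per unit of gene length and of library size, the latter scaled between hearts, so the divisor is not the plain total. The plain totals ran from 13647167 to 18474002 fragments. The vehicle and MEKi groups were compared on log2(FPKM + 0.1) with limma over the 12602 genes whose mean reached 0.5 FPKM, and p-values were adjusted over all of them by Benjamini-Hochberg. The X-linked transcript *Xist* had from 1456 to 2199 fragments in every MEKi-treated heart and at most 2 in any vehicle heart. The Y-linked genes *Ddx3y* and *Eif2s3y* were above 8 FPKM in all vehicle hearts and had 0 fragments in all MEKi-treated hearts. Treatment and sex-linked transcripts divided the hearts in the same way, so that for every difference below their parts cannot be told apart. In whole tissue, fewer cells of a type and less RNA per cell cannot be told apart either. The cardiomyocyte markers *Myh6*, *Tnnt2*, *Tnni3*, *Actc1*, *Ryr2*, *Myl2*, *Myl3* and *Mb* were all present and summed to between 21260 and 31091 FPKM per heart. Markers of endothelial cells, fibroblasts and macrophages were present too. The levels and ratios below are therefore of whole tissue and not of cardiomyocytes alone, and the part of each cell type in them was not measured.

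No junction gene passed the threshold of 0.05 (limma adjusted p, 0.456 to 0.942), where 0.0794% of all genes tested did, 0.0238% in the higher direction. A voom fit to the fragments also called none of the 10. All 10 had a log2 fold change above 0, from 0.06 for *Dsp* to 0.35 for *Cdh2*, with a median of 0.16, beside a median of 0.01 over all genes tested. Without vehicle heart 3 the median of the 10 was 0.26. Among all genes 52.1% had a log2 fold change above 0. At an unadjusted p under 0.05 there were 3 of the 10, *Ctnna1*, *Cdh2* and *Pkp2*, all higher with MEKi, where 7.62% of all genes had such a p and 3.67% had it in that direction. *Ctnna1* was the 1 junction gene whose groups did not overlap. Groups did not overlap for 1.64% of all genes tested, and for 0.794% of all genes tested they did so in the higher direction.

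**Figure D1:**
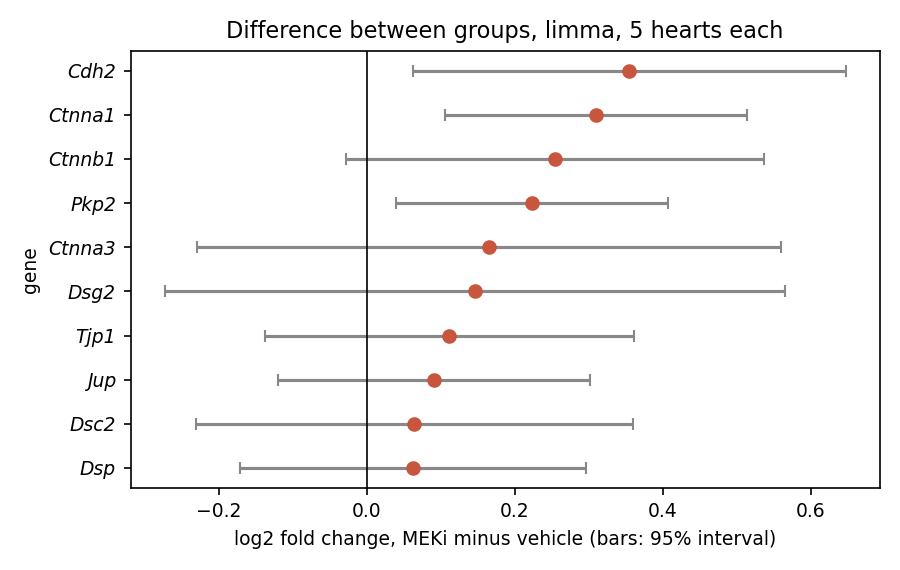
Log2 fold change of each gene (x axis, MEKi minus vehicle, limma, 5 hearts in each group), with the gene on the y axis, points for the estimate and bars for the 95% interval. All 10 points lie above 0, and the intervals of *Cdh2*, *Ctnna1* and *Pkp2* alone do not reach 0 before adjustment for the number of genes tested.

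Per unit of length, the messages of αE-catenin, desmoplakin and β-catenin were the most abundant, and those of the desmosomal cadherins and αT-catenin were the lowest. By mean FPKM over the 10 hearts, the order was *Ctnna1* (105.6), *Dsp* (54.2), *Ctnnb1* (43.2), *Jup* (28.0), *Pkp2* (20.7), *Cdh2* (18.5), *Tjp1* (7.17), *Dsc2* (5.64), *Dsg2* (5.30) and *Ctnna3* (1.71). This order held between neighbours in 10 of 10 hearts from *Ctnna1* down to *Pkp2*, between *Cdh2* and *Tjp1*, and between *Dsg2* and *Ctnna3*. It held in 8 of 10 hearts for *Pkp2* over *Cdh2*, in 9 of 10 for *Tjp1* over *Dsc2* and in 8 of 10 for *Dsc2* over *Dsg2*, so those neighbours are not separated beyond the spread of the hearts. The top place of *Ctnna1* rests on the length of 3698 bases in the table, where GENCODE M21 annotates 6425 exonic bases. The same fragments divided by the longer length would give 60.8 FPKM, above *Dsp* in 9 of 10 hearts. Whether fragments on the further bases were counted is not known, so this is a rescaling and not a measured level. The length is the same in every heart, so the difference between groups in the deposited values does not depend on it. For the other 9 genes the lengths are equal.

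**Figure D2:**
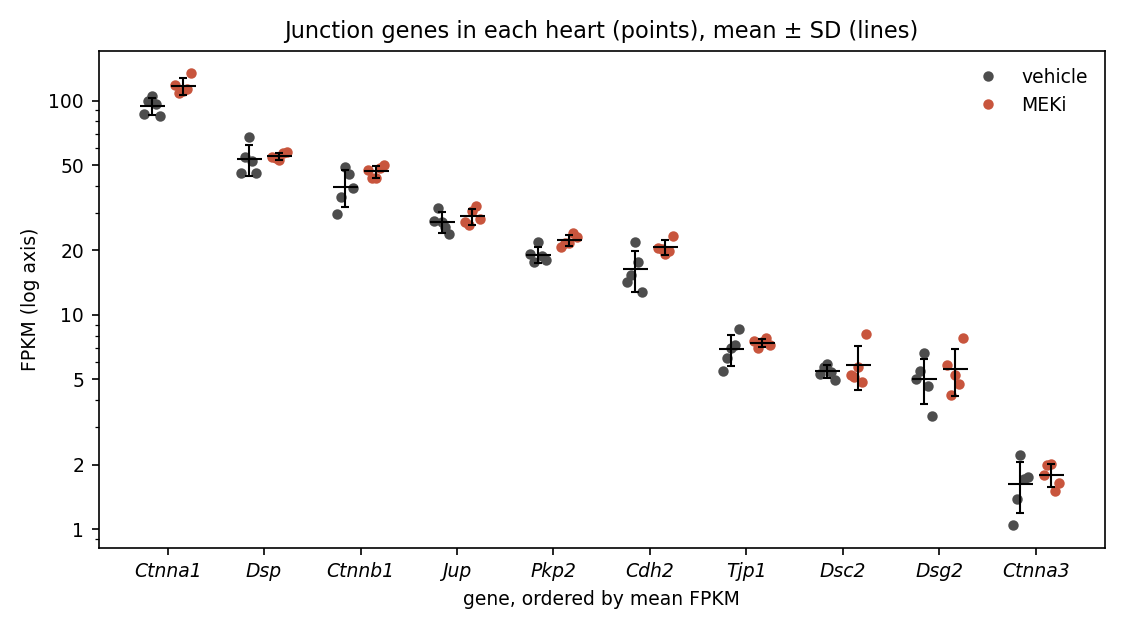
FPKM of the 10 genes (y axis, log scale) in each heart, with the genes on the x axis in the order of their mean, vehicle hearts in dark grey and MEKi-treated hearts in red, and lines for the mean and SD of 5 hearts. *Ctnna1* is the gene whose red and grey points do not overlap, and the grey points of *Dsp*, *Ctnnb1* and *Cdh2* spread more widely than the red.

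*Cdh2* (chromosome 18 of GRCm38, 16588877 to 16809246, minus strand) encodes N-cadherin, the adhesion receptor of the adherens junction. It was at 14.3, 15.3, 21.8, 17.7 and 12.8 FPKM in vehicle hearts 1 to 5 and at 20.5, 20.2, 19.2, 19.9 and 23.5 FPKM in MEKi-treated hearts 1 to 5. Vehicle hearts 1, 2, 4 and 5 lay below every MEKi-treated heart, and vehicle heart 3 lay above all MEKi-treated hearts but heart 5. The means were 16.4 ± 3.52 and 20.7 ± 1.65 FPKM (SD, n = 5 each), 26.1% apart. The fitted fold on the log2(FPKM + 0.1) scale was 1.28 (95% interval, 1.04 to 1.57; log2 fold change 0.35, SE 0.13, limma unadjusted p = 0.0216, adjusted p = 0.563). This was the largest fitted fold among the 10 genes, and it did not pass the threshold. With each heart left out, the limma unadjusted p ran from 0.00121 to 0.0542, and the adjusted p was at least 0.277. The unadjusted p rose to 0.0510 without vehicle heart 1, 0.0542 without vehicle heart 5 and 0.0529 without MEKi-treated heart 5.

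*Ctnna1* (chromosome 18, 35118888 to 35254773, plus strand) encodes αE-catenin, which ties the cadherin complex to actin. Its values were 86.2, 99.2, 105.5, 96.2 and 84.7 FPKM in vehicle hearts 1 to 5 and 118.3, 108.4, 110.5, 113.5 and 133.9 FPKM in MEKi-treated hearts 1 to 5. The highest vehicle heart, 3, was below the lowest MEKi-treated heart, 2. The means were 94.4 ± 8.79 and 116.9 ± 10.2 FPKM (SD, n = 5 each), 23.9% apart (log2 fold change 0.31, SE 0.09, 95% interval 0.11 to 0.51, limma unadjusted p = 0.00643, adjusted p = 0.456). Between 4559 and 7783 fragments per heart lay behind these values, and the gene ranked 175 by unadjusted p. With each heart left out, its limma unadjusted p ran from 0.00297 to 0.0161, and the adjusted p was at least 0.294. *Lrrtm2*, which lies on the other strand and shares 95 exonic bases with *Ctnna1*, had 0 FPKM in every heart.

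*Ctnna3* (chromosome 10, 63430098 to 65003667, plus strand), which encodes αT-catenin, the α-catenin that also binds plakophilin-2, was the least abundant of the 10. It was at 1.04, 1.39, 2.22, 1.71 and 1.76 FPKM with vehicle and at 1.79, 1.99, 2.03, 1.52 and 1.64 FPKM with MEKi, from 127 to 247 fragments per heart. The MEKi-treated hearts lay within the vehicle range (log2 fold change 0.17, SE 0.18, 95% interval −0.23 to 0.56, limma adjusted p = 0.869). It was 0.03 without vehicle heart 1 and 0.28 without vehicle heart 3.

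*Ctnnb1* (chromosome 9, 120929216 to 120960507, plus strand) encodes β-catenin, a junction protein that also acts in the nucleus downstream of WNT. It was at 29.5, 35.6, 49.0, 45.5 and 39.1 FPKM in vehicle hearts and at 47.5, 43.6, 43.7, 48.5 and 50.3 FPKM in MEKi-treated hearts. Vehicle hearts 1, 2 and 5 were below every MEKi-treated heart, while vehicle hearts 3 and 4 lay among them. The means were 39.7 ± 7.76 and 46.7 ± 2.97 FPKM (SD, n = 5 each; log2 fold change 0.25, SE 0.13, 95% interval −0.03 to 0.54, limma adjusted p = 0.673). The log2 fold change was 0.15 without vehicle heart 1, the lowest of all hearts. *Ulk4*, on the other strand, overlaps 14.6% of its exonic bases and was at most at 0.0973 FPKM.

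*Jup* (chromosome 11, 100368958 to 100397763, minus strand) encodes plakoglobin, the relative of β-catenin that serves both kinds of junction. It was at 27.5, 31.7, 27.1, 25.7 and 23.8 FPKM with vehicle and at 27.1, 26.2, 30.7, 32.2 and 28.1 FPKM with MEKi. The groups overlapped over most of their range (log2 fold change 0.09, SE 0.10, 95% interval −0.12 to 0.30, limma adjusted p = 0.865). It was 0.04 without vehicle heart 5 and 0.15 without vehicle heart 2.

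Among the desmosomal plaque genes, *Pkp2* (chromosome 16, 16213318 to 16272712, plus strand), which encodes plakophilin-2, had the largest fold. It was at 19.2, 17.7, 21.8, 18.8 and 17.99 FPKM with vehicle and at 20.8, 21.6, 21.7, 24.2 and 23.1 FPKM with MEKi. Vehicle heart 3 alone reached into the MEKi range. The means were 19.1 ± 1.61 and 22.3 ± 1.35 FPKM (SD, n = 5 each), 16.6% apart, with a fitted fold of 1.17 on the log2(FPKM + 0.1) scale (95% interval, 1.03 to 1.33; log2 fold change 0.22, SE 0.08, limma unadjusted p = 0.0217, adjusted p = 0.563). With each heart left out, the limma unadjusted p ran from 0.00508 to 0.0582, and the adjusted p was at least 0.318. The unadjusted p rose to 0.0527 without vehicle heart 2 and to 0.0582 without MEKi-treated heart 4.
*Dsp* (chromosome 13, 38151294 to 38198577, plus strand) encodes desmoplakin, which anchors intermediate filaments. It was at 46.0, 54.5, 67.3, 52.5 and 46.0 FPKM with vehicle and at 54.3, 53.7, 53.0, 56.8 and 57.6 FPKM with MEKi. The MEKi-treated hearts lay in a narrow band inside the vehicle range, with a coefficient of variation of 3.66% against 16.4% (log2 fold change 0.06, SE 0.11, limma adjusted p = 0.927). The 95% interval of the fold ran from 0.888 to 1.23, and the log2 fold change was 0.01 without vehicle heart 5 and 0.15 without vehicle heart 3. The coefficient of variation was larger with vehicle for 8 of the 10 genes, as it was for 67.2% of all genes tested.

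Messages of the desmosomal cadherins were about equal to each other. *Dsg2* (chromosome 18, 20558074 to 20604521, plus strand), desmoglein-2, was at 5.02, 5.50, 6.65, 4.64 and 3.37 FPKM with vehicle and at 5.84, 4.23, 5.24, 4.78 and 7.78 FPKM with MEKi. *Dsc2* (chromosome 18, 20030633 to 20059554, minus strand), desmocollin-2, was at 5.33, 5.69, 5.93, 5.42 and 4.97 FPKM with vehicle and at 5.25, 5.11, 5.69, 4.85 and 8.18 FPKM with MEKi. Both genes were highest in MEKi-treated heart 5, and the other 4 MEKi-treated hearts lay within the vehicle range for *Dsg2* and in or just below it for *Dsc2*. Neither difference was larger than the scatter of the hearts. For *Dsg2* the log2 fold change was 0.15 (SE 0.19, 95% interval −0.27 to 0.56, limma adjusted p = 0.897). For *Dsc2* it was 0.06 (SE 0.14, 95% interval −0.23 to 0.36, limma adjusted p = 0.942). Without MEKi-treated heart 5 the log2 fold change was 0.02 for *Dsg2* and −0.06 for *Dsc2*, and for *Dsg2* it was 0.01 without vehicle heart 5 and 0.25 without vehicle heart 3.

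*Tjp1* (chromosome 7, 65296165 to 65527781, minus strand), which encodes ZO-1, had a different order of hearts. It was at 5.46, 6.32, 7.03, 7.26 and 8.56 FPKM with vehicle and at 7.58, 6.99, 7.45, 7.80 and 7.25 FPKM with MEKi. Vehicle heart 5, the lowest heart for *Dsp*, *Dsg2*, *Jup*, *Cdh2* and *Ctnna1*, was the highest for *Tjp1* (log2 fold change 0.11, SE 0.11, limma adjusted p = 0.854). The log2 fold change was 0.03 without vehicle heart 1 and 0.19 without vehicle heart 5. It was 0.27 without the 3 hearts high in atrial markers (vehicle hearts 4 and 5 and MEKi-treated heart 2, limma unadjusted p = 0.0498, adjusted p = 0.770).

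Several of the 10 genes ranked the hearts alike. Vehicle heart 1 was below the mean of the 10 hearts for all 10 genes, and vehicle heart 5 was among the 3 lowest hearts for 8 of them. Vehicle heart 3 and MEKi-treated heart 5 were among the 3 highest hearts for 7 of 10 each. After centring within each group, the 45 pairs of genes had a median Pearson r of 0.38 (range, −0.40 to 0.90; 10 hearts), 36 were above 0 and 18 above 0.5. The highest were *Dsp* with *Cdh2* (0.90), *Dsg2* with *Ctnna1* (0.88) and *Cdh2* with *Ctnna1* (0.84), while *Tjp1* was below 0 in 6 of its 9 pairs and *Jup* with *Ctnnb1* was at −0.20. These are descriptions of 10 libraries that share depth and scaling, and no test was made of them. Pairs of other genes were not counted in this way, so the likeness is not shown to be particular to these 10 genes.

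**Figure D3:**
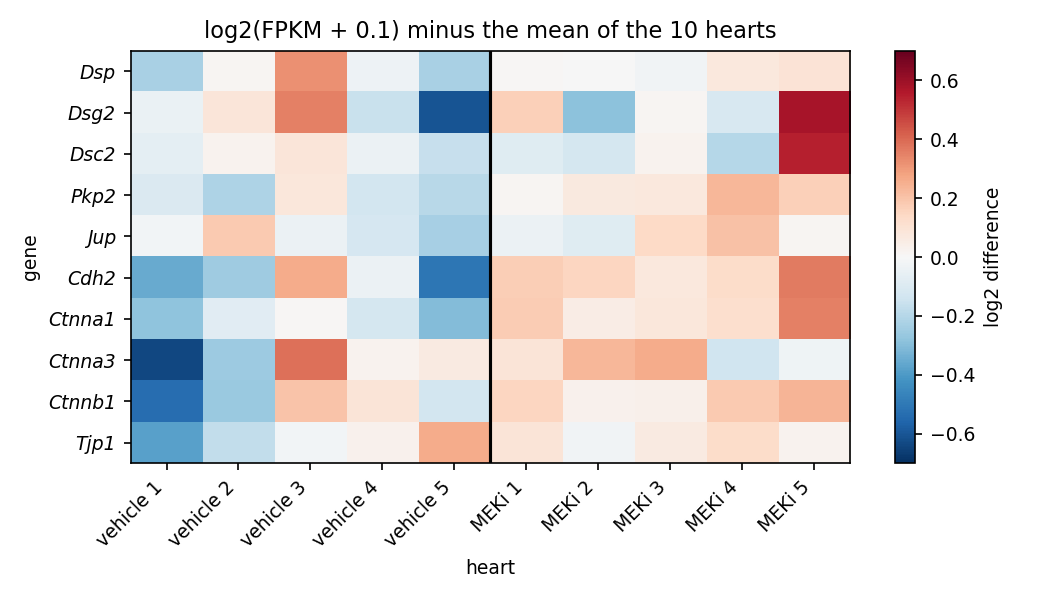
Each gene (y axis) in each heart (x axis) as log2(FPKM + 0.1) minus the mean of the 10 hearts, blue below and red above that mean, with vehicle hearts left of the black line. The column of vehicle heart 1 is blue for all 10 genes, vehicle heart 3 and MEKi-treated heart 5 are mostly red, and vehicle heart 5 is blue but for *Tjp1* and *Ctnna3*.

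Other measures of these hearts also varied. Mitochondrial genes took 35.0% of the fragments in vehicle heart 3 and 24.7% in vehicle heart 1, the extremes of the vehicle group. The 8 endothelial markers summed to 139.7 FPKM in vehicle heart 3 and 144.4 FPKM in MEKi-treated heart 5, the lowest of their groups, and to 226.7 FPKM in vehicle heart 5, the highest of all. MEKi-treated heart 5 also had the lowest summed cardiomyocyte markers, 21260 FPKM. Atrial markers summed to 898.2, 422.8 and 740.4 FPKM in vehicle hearts 4 and 5 and MEKi-treated heart 2 and to at most 59.0 FPKM in the rest. The part of these measures in the junction values was not tested. Without those 3 hearts, 0 of the 10 genes passed the threshold and the median log2 fold change was 0.21.

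Between groups, macrophage markers were lower with MEKi in 8 of 8 genes (median log2 fold change −0.36, 3 with an unadjusted p under 0.05, none past the threshold), and their sum ran from 186.2 to 328.7 FPKM with vehicle and from 161.6 to 199.5 FPKM with MEKi. Mesothelial and epithelial markers were lower in all 7 tested (median log2 fold change −1.26, none past the threshold), with sums from 9.30 to 26.0 and from 1.72 to 19.8 FPKM. The skin keratins *Krt5* and *Krt14* had at most 1 and 8 fragments in a heart. Endothelial, fibroblast, and smooth muscle and pericyte markers had medians of −0.11, 0.04 and −0.28 on the same scale, and cardiomyocyte markers of 0.10. Adipocyte and atrial markers had medians of 0.82 and −2.23, each with sums that overlapped between groups. Their part in the junction values was not tested.

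For genes that act as partners or belong to 1 family, the ratio of their FPKM within a heart does not move with the scaling of the library. No difference in the 5 ratios passed the threshold (two-sided exact permutation test, adjusted p from 0.397 to 0.603 over the 5, the smallest p possible being 0.00794). *Pkp2* to *Dsp* had the smallest p. It was at 0.417, 0.325, 0.324, 0.358 and 0.391 with vehicle and at 0.383, 0.402, 0.409, 0.426 and 0.400 with MEKi. Vehicle heart 1 lay near the top of the MEKi range and the other vehicle hearts below or in its lower part (log2 difference 0.16, SE 0.08, exact permutation p = 0.0794).
*Jup* to *Ctnnb1* was at 0.932 and 0.889 in vehicle hearts 1 and 2 and between 0.553 and 0.701 in the other 8 hearts. There was less plakoglobin than β-catenin message in 10 of 10 hearts, and the groups overlapped (log2 difference −0.16, SE 0.18, exact permutation p = 0.389). The log2 difference was −0.06 without vehicle heart 1. *Dsg2* to *Dsc2* ran from 0.678 to 1.12 with vehicle and from 0.827 to 1.11 with MEKi (log2 difference 0.08, SE 0.14, exact permutation p = 0.603), with a log2 difference of −0.02 without vehicle heart 5. *Dsg2* to *Cdh2* was 0.308 ± 0.0466 and 0.268 ± 0.0462 (SD, n = 5 each; log2 difference −0.21, SE 0.15, exact permutation p = 0.198), with a log2 difference of −0.12 without MEKi-treated heart 2. *Ctnna3* to *Ctnna1* was 0.0171 ± 0.00399 and 0.0155 ± 0.00282 with the lengths of the table (SD, n = 5 each; log2 difference −0.13, SE 0.20, exact permutation p = 0.476). Without vehicle heart 3 the log2 difference was −0.05, and without vehicle heart 1 it was −0.25.

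**Figure D4:**
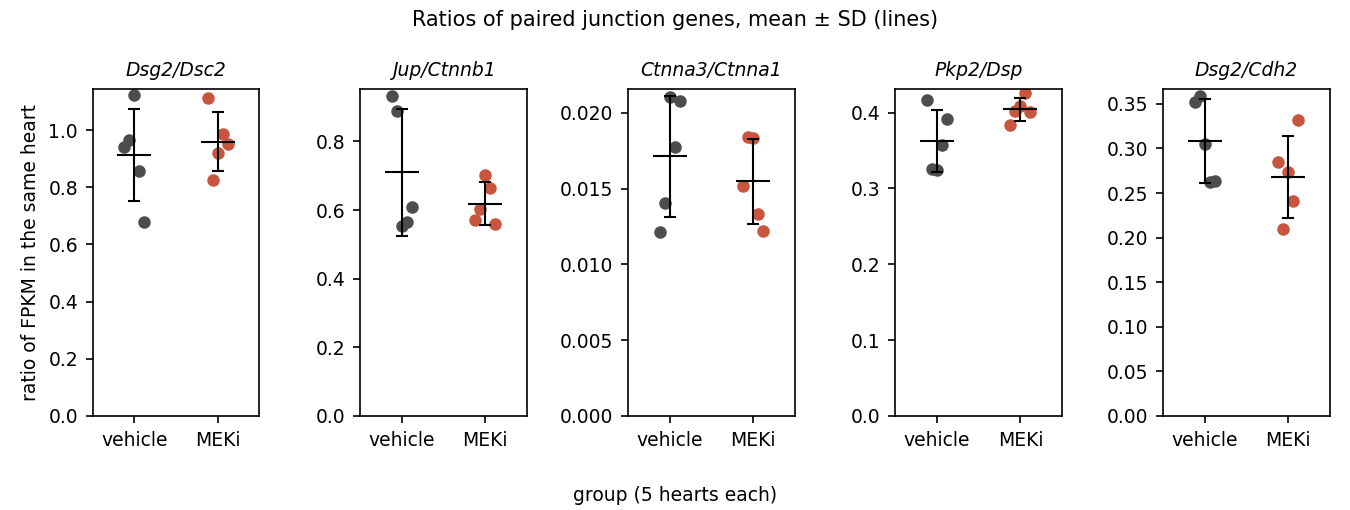
Ratio of FPKM of the named genes in the same heart (y axis of each panel, starting at 0) for vehicle and MEKi-treated hearts (x axis), with points for hearts and lines for the mean and SD of 5. Groups overlap in every panel, and the MEKi points of *Pkp2* to *Dsp* lie between 0.383 and 0.426 while the vehicle points run from 0.324 to 0.417.

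The permutation tests of correlation that follow pool both groups and take an r of 0 as no relation, while the 45 pairs within groups had a median of 0.38, so a small p does not set a pair apart from the other junction genes. Across the 10 hearts, *Dsg2* with *Dsc2* had the highest r of the 5 pairs (Pearson r = 0.80, permutation p = 0.00292, adjusted p = 0.0146 over 5 pairs; Spearman rho = 0.77, permutation p = 0.0139, adjusted p = 0.0694), and r was 0.67 without vehicle heart 5 and MEKi-treated heart 5, the hearts farthest from the median. For *Dsg2* and *Cdh2* the same values were r = 0.69 (permutation p = 0.0247, adjusted p = 0.0618) and rho = 0.66 (permutation p = 0.0441, adjusted p = 0.0891). Without these hearts r fell to 0.22. They were picked as the extremes of *Dsg2*, so leaving them out narrows its range. The fall therefore cannot show whether the relation rests on them. *Pkp2* and *Dsp* had r = 0.58 and rho = 0.64 (permutation p = 0.0692 and 0.0535, adjusted p = 0.115 and 0.0891), and r = 0.57 without vehicle hearts 2 and 5. *Jup* and *Ctnnb1* had r = 0.03 and rho = 0.12 (permutation p = 0.947 and 0.759, adjusted p = 0.947 and 0.759), and *Ctnna3* and *Ctnna1* r = 0.37 and rho = 0.20 (permutation p = 0.291 and 0.584, adjusted p = 0.364 and 0.730). Without the 2 farthest hearts these were r = 0.13 and 0.04. Genes with the pattern most like the mean of the 10, after centring within groups and over the 10695 other genes that averaged 1 FPKM or more, were *Golt1b* (r = 0.99), *Tmem106b* (0.98), *Klf15* (0.98), *Washc5* (0.98) and *Osbp* (0.97), which were picked for this likeness over 10 hearts and are given with no test.

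Of 9 desmosomal paralogs that stratified epithelia use, none reached the filter of 0.5 FPKM. *Dsg1b*, *Dsc1* and *Dsc3* had 0 fragments in all 10 hearts, which allows up to 3 fragments a heart by counting error. *Dsg1a*, *Dsg1c*, *Dsg3*, *Dsg4* and *Pkp1* reached 9 fragments at most per heart, and *Pkp3* 17. *Ctnna2*, the neural α-catenin, had 1 fragment over all hearts, and E-cadherin, *Cdh1*, at most 3 in a heart. Among the desmosomal genes measured, those past the filter were therefore *Dsg2*, *Dsc2*, *Pkp2*, *Jup* and *Dsp*, besides the partners described next.

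The 72 further junction genes in 5 lists gave 53 past the filter, of which 0 passed the threshold (limma, adjusted over all genes tested), and 6 had an unadjusted p under 0.05, 4 higher (*Perp*, *F11r*, *Gja1* and *Kcnj2*) and 2 lower (*Xirp2* and *Zyx*) with MEKi. These 6 are 11.3% of the 53, beside 7.62% of all genes tested, of which 3.67% were higher and 3.94% lower. *Kcnj2*, an inward rectifier channel, and *Zyx*, zyxin, are named because of these p-values and were chosen after their values were seen. There 22 were above 0 and 31 below, with a median log2 fold change of −0.02. Among desmosome partners 4 were tested, 1 higher and 3 lower (median −0.14). *Perp*, a tetraspan membrane protein needed for desmosomes in epithelia, was at 59.8, 69.4, 67.7, 72.4 and 74.4 FPKM with vehicle and at 89.5, 111.3, 93.5, 85.7 and 78.2 FPKM with MEKi. The groups did not overlap, the MEKi values being the higher (log2 fold change 0.41, SE 0.11, limma unadjusted p = 0.00226, adjusted p = 0.324). *Tmem43*, a nuclear membrane protein linked to arrhythmogenic cardiomyopathy, was at 7.32 ± 0.863 and 6.65 ± 0.625 FPKM (SD, n = 5 each; log2 fold change −0.13, limma adjusted p = 0.808).

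Adherens junction partners split 5 higher and 9 lower of 14 tested (median log2 fold change −0.03), and none had an unadjusted p under 0.05. *Cdh5*, the endothelial cadherin, was at 38.0 ± 5.08 and 35.5 ± 5.16 FPKM, and *Pkp4*, a relative of p120 catenin, at 18.5 ± 4.04 and 16.3 ± 1.35 FPKM (SD, n = 5 each; limma adjusted p = 0.895 and 0.820). *Ctnnal1*, α-catulin, had the smallest p of this list, with 3.14 ± 0.412 and 3.596 ± 0.447 FPKM (SD, n = 5 each; limma adjusted p = 0.756).
Tight junction genes split 7 higher and 4 lower of 11 (median 0.04). *F11r*, the junctional adhesion molecule JAM-A, was at 11.96, 14.5, 8.79, 14.7 and 14.7 FPKM with vehicle and at 15.7, 18.5, 16.03, 15.5 and 15.1 FPKM with MEKi. The groups did not overlap, and vehicle heart 3 was the lowest of all (log2 fold change 0.34, SE 0.14, limma unadjusted p = 0.0332, adjusted p = 0.606). The log2 fold change was 0.21 without vehicle heart 3, and with each heart left out the unadjusted p reached 0.0798. *Jam2* and *Cldn5*, both endothelial, were at 27.0 ± 3.22 and 18.2 ± 4.79 FPKM with vehicle and at 29.8 ± 4.46 and 21.6 ± 3.89 FPKM with MEKi (SD, n = 5 each; limma adjusted p = 0.826 and 0.766).

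Gap junction and disc channel genes split 5 higher and 3 lower of 8 (median 0.06). *Gja1*, connexin 43, the main gap junction protein of ventricular muscle, was at 23.7, 26.7, 25.3, 22.3 and 17.2 FPKM with vehicle and at 34.5, 28.1, 33.6, 24.4 and 53.3 FPKM with MEKi. MEKi-treated heart 4 alone lay inside the vehicle range, and MEKi-treated heart 5, highest for *Dsg2* and *Dsc2*, was highest here too. The log2 fold change was 0.56 (SE 0.19, limma unadjusted p = 0.0137, adjusted p = 0.517), and 0.39 without MEKi-treated heart 5.
Cytoskeletal anchors split 4 higher and 12 lower of 16 (median −0.04). *Xirp2*, an actin-binding protein of the disc, was at 28.9, 26.9, 36.7, 32.5 and 25.0 FPKM with vehicle and at 20.5, 25.1, 21.4, 20.4 and 20.5 FPKM with MEKi. MEKi-treated heart 2 alone reached the lowest vehicle heart (log2 fold change −0.46, SE 0.11, limma unadjusted p = 0.00165, adjusted p = 0.314). *Des*, desmin, the filament held by desmoplakin, was at 551.6 ± 66.6 and 562.2 ± 29.1 FPKM, and *Csrp3*, muscle LIM protein, at 547.8 ± 93.4 and 520.4 ± 78.1 FPKM (SD, n = 5 each; limma adjusted p = 0.959 and 0.939).

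**Figure D5:**
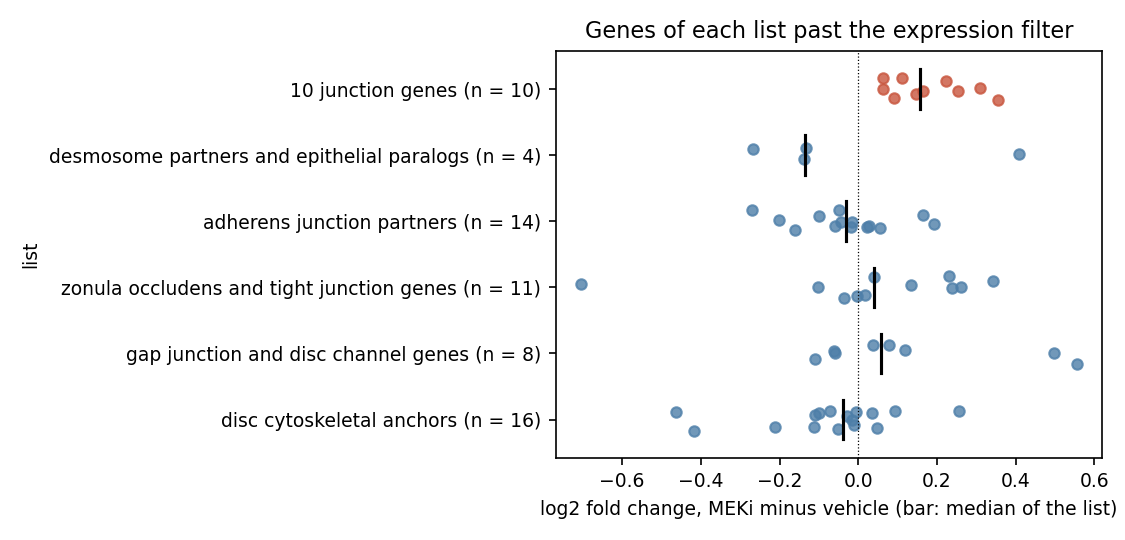
Log2 fold change (x axis, MEKi minus vehicle) of each gene past the filter in the 10 junction genes (red) and in 5 lists of further junction genes (blue), with a bar at each median and a dotted line at 0. The 10 junction genes all lie above 0 with a median of 0.16, and the medians of the 5 lists lie between −0.14 and 0.06.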

How the data were processed

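RNA-seq of 10 hearts was read from 1 table of FPKM, which the authors deposited with gene lengths and coordinates. The submitters' processing notes name fastp, STAR 2.5, HTSeq 0.6.1 and mm10. The annotation release and strand setting are not given in the sources used here. Coordinates equal those of GENCODE M21 (GRCm38) for 98.3% of 54409 genes. Per heart, values times gene length fell on 1 step (tolerance 0.01 fragments) for 100% of values, which gave the fragments. The library sizes behind the FPKM differ from the fragment totals, so the authors had scaled hearts against each other by a method not given in the sources used here. Groups and replicate numbers came from the labels.

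log2(FPKM + 0.1) was fitted with limma 3.58.1 in R 4.3.3 (eBayes with a trend, two-sided) where a gene's mean reached 0.5 FPKM. Ratios and correlations used Python 3.11.15 with scipy 1.17.1 (all 252 assignments of hearts for ratios, 100000 pairings for correlations). The fit was tested on simulated data. P-values set a difference or a correlation against the variation between these hearts, and limma also draws on the variances of the other genes tested.

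The junction genes, lists and tests were chosen with earlier results of these data known. Genes named are the 10, and from each list those past the threshold, the 2 with the highest mean and the 1 with the smallest p, besides the 5 genes most like the 10. Of these, 1 gene is not reported here. Marker and paralog genes are named where their levels are given. Alternatives covered pseudocounts, filters, scaling, variance models, voom on fragments, the replicate block, and leaving out hearts.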

Additional observations from a re-analysis of the deposited data

Results flagged for a closer look

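For *Dsc2*, MEKi-treated heart 5 stood apart from its group at 8.18 FPKM, while the other MEKi-treated hearts lay between 4.85 and 5.69 FPKM. It was the 1 such case in 30 sets of 5 values, 20 of FPKM and 10 of ratios, and chance gives about 1 in 20, here 1.5.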

How the results depend on the processing

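Under 23 alternatives 0 of the 10 genes passed the threshold, as did 0 of the 53 further junction genes, except that a filter of 5 FPKM left 9 of the 10 and 28 of the 53 to test. The number of the 10 with an unadjusted p under 0.05 was 1 with the replicate block and from 2 to 4 with each heart left out. The number above 0 was 9 of 10 with array weights and without MEKi replicate 5, 9 of 9 with the filter of 5 FPKM and 10 under the rest, and the median log2 fold change lay between 0.11 and 0.26, the highest without vehicle replicate 3. On a TPM scale it was 0.24, and the median of all genes was 0.09. *Dsc2* was at −0.00012 with array weights and ran from −0.064 (without MEKi replicate 5) to 0.12 (without MEKi replicate 4) with each heart left out.

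Over all genes, 10 passed in the fit reported, 18 with array weights, 4 with the replicate block, 2 with a mean of 5 FPKM or more, 5 without vehicle hearts 4 and 5 and MEKi heart 2, and from 5 (without vehicle replicate 2) to 13 with each heart left out. The cause was not tested. Of the 10, 6 lie on X, Y or the mitochondrion, and limma called 0 of 12178 genes without those chromosomes, 924 of them at an unadjusted p under 0.05. The replicate numbers did not pair the hearts: deviations of same-numbered hearts correlated between −0.15 and −0.02, and no vehicle heart correlated best with its own number.

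The log2 difference of *Dsg2* to *Dsc2* was −0.025 without vehicle hearts 4 and 5 and MEKi heart 2, and ran from −0.018 (without vehicle replicate 5) to 0.16 with each heart left out. Without those 3 hearts *Cdh5* was at 0.047 and *Des* at −0.085. With each heart left out, *Des* ran from −0.026 to 0.086 and *Csrp3* from −0.14 to 0.014. On a TPM scale *Csrp3* was at 0.0076. Sequencing of 5 hearts a group, with the sex-linked split, limits what these values can show.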
